A study of Mus musculus with 2 samples.

Results

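GABA-A receptor subunits were followed across the cell types of mouse lumbar dorsal root ganglia (DRG), which hold the cell bodies of the sensory neurons that serve the limb. The members were 7 genes, matched by symbol among the 31253 genes of the deposited tables: the alpha subunits Gabra2, Gabra3 and Gabra5, the beta subunits Gabrb1 and Gabrb2, and the gamma subunits Gabrg1 and Gabrg3. All 7 were found, and 6 passed the filter on low counts. Gabrb2 did not pass and is described by its counts. Their mRNA was measured by droplet-based single-cell RNA sequencing, in which each captured molecule is tagged with a unique molecular identifier (UMI) and counted once.

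The tissue came from L4-5 ganglia of wild-type mice aged 8 weeks. All of the tissue was from AEW animals (acetone, ether and water), in which solvent and water applied to the skin dry it and the animals scratch. The group comprised 2 libraries, called replicates 1 and 2, and every cell type compared below came from the same AEW-treated tissue. No untreated or pain group is among the samples analysed here, so each comparison was between cell types and none shows an effect of AEW.

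GABA-A receptors are pentameric chloride channels opened by GABA. Alpha and beta subunits together form the GABA binding site, and the identity of the alpha and gamma subunits sets kinetics, location and drug sensitivity. Primary sensory neurons keep their internal chloride high through the cotransporter Slc12a2, so that GABA depolarises them, and receptors on their central terminals take part in presynaptic inhibition in the spinal cord.

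The genes lie in clusters on GRCm38, the build also called mm10. Gabrg1 (ENSMUSG00000001260, chr5:70751047-70842617, minus strand), Gabra2 (ENSMUSG00000000560, chr5:70957597-71095849, minus strand) and Gabrb1 (ENSMUSG00000029212, chr5:71658113-72149037, plus strand) are neighbours on chromosome 5. Gabrg3 (ENSMUSG00000055026, chr7:56716465-57387188, minus strand) and Gabra5 (ENSMUSG00000055078, chr7:57407672-57510059, minus strand) are neighbours on chromosome 7. Gabrb2 (ENSMUSG00000007653, chr11:42419757-42629028, plus strand) is on chromosome 11 and Gabra3 (ENSMUSG00000031343, chrX:72432681-72656848, minus strand) on the X chromosome. The start of Gabrb1 overlaps that of Gabra4, and Gabra5 overlaps the antisense gene Gm9962, in each case on opposite strands, and whether counting used the strand is not given in the sources used here.

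The promoters of the 3 neighbours on chromosome 5 and of Gabrg3 are shown because, among the types in the fit, Gabra2 and Gabrb1 were highest in TH neurons, Gabrg1 in NF neurons and Gabrg3 in PEP-C neurons (the types are defined further on). Each window runs from 250 bases before to 50 bases after a RefSeq transcription start on GRCm38.p6, written 5′ to 3′ on the gene's own strand, with every CG dinucleotide in capitals. The windows are chr5:71095800-71096099 for Gabra2, chr5:71657671-71657970 for the more upstream of the 2 Gabrb1 starts, chr5:70842568-70842867 for Gabrg1 and chr7:57387166-57387465 for Gabrg3.
Gabra2: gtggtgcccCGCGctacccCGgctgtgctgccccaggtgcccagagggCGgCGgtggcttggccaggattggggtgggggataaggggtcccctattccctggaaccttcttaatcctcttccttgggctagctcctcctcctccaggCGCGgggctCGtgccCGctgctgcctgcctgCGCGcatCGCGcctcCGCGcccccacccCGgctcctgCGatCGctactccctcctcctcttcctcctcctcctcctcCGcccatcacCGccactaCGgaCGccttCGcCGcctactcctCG
Gabrb1: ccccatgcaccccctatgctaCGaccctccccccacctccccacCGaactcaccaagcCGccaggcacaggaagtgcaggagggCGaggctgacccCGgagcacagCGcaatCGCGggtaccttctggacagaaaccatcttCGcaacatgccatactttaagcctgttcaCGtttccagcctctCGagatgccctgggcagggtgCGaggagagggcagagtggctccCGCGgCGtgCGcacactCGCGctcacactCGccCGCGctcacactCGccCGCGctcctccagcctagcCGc
Gabrg1: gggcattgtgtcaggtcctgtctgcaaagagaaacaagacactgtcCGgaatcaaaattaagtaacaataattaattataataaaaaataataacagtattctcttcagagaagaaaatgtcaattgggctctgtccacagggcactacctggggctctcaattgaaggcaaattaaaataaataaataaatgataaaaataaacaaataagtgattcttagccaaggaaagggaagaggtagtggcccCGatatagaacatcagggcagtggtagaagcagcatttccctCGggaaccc
Gabrg3: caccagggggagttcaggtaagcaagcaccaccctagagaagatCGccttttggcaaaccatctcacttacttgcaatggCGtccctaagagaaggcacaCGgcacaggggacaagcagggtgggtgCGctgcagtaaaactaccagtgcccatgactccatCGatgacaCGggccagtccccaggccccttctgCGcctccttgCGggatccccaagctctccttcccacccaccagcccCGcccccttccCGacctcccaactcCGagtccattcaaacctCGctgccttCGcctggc
The Gabra2 and Gabrb1 windows each held 25 CG dinucleotides, and 81.6% of the 32851 mouse promoter windows held fewer. The Gabrg1 window held 3, with 23.3% of windows holding fewer, and the Gabrg3 window held 13, with 62.1% holding fewer. The GC box GGGCGG, present on either strand in 35.7% of all windows, was found in the Gabra2 and Gabrg3 windows. CCAAT, present in 37.4% of windows, was found in those of Gabra2 and Gabrg1. The RUNX core TGTGGT, present in 16.8%, was in 1 of the 2 Gabrb1 windows, the more downstream, which is not shown. TATAAA, TGACGTCA and CACGTG, present in 13.6%, 1.79% and 7.15% of windows, were in none of these 4 genes' windows. No motif searched contains another.

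The libraries held 8818 barcodes and 113251556 UMIs in replicate 1, and 11767 barcodes and 102347251 UMIs in replicate 2. Although the labels give the cell type as neuron, the neuron markers placed 595 and 919 barcodes in the neuron gate, and satellite glia, the cells that wrap sensory neuron cell bodies, numbered 2387 and 2476. Between them the libraries shared 24 barcodes, of which 7 were among the cells given a type. The labels do not say whether the replicates are separate animals. Library is a term in the fit, so p-values measure how differences between types vary between these 2 libraries. That variation may be technical. Type names stand for cells like that type by their markers: NF for large myelinated A-fibre neurons (Nefh, Ntrk3), TH for C-fibre low-threshold touch neurons (Th, Tafa4), PEP-A and PEP-C for peptidergic neurons with and without A-fibre markers (Calca with Kit and Nefh, or Tac1 with Adcyap1), NP1 for Mrgprd neurons, NP2 for Mrgpra3 itch neurons, and NP3 for Nppb and Sst itch neurons. Each of these 7 types held between 31 and 153 cells per library, with median depths of 38760 to 164416 UMIs. Levels are UMIs of a gene per 10000 UMIs of the type, and since 3′ tags are counted they are compared between types and not between genes. Genes were tested with edgeR's quasi-likelihood test and called at an adjusted p under 0.05. A log2 fold change sets a type against the average of the logs of the other 6 types, so types with few UMIs weigh on it as much as those with many, and the ratio of pooled UMIs is given beside it where the picture differs.

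Gabra2 encodes the alpha2 subunit, a common synaptic alpha subunit of the spinal cord. Its level was 0.574 and 0.741 in TH neurons and 0.552 and 0.532 in NF neurons, in replicates 1 and 2. PEP-A neurons held 0.248 and 0.316. The other 4 neuron types lay between 0.106 and 0.199, and satellite glia were at 0.0357 and 0.0370. TH, NF and PEP-A neurons therefore stood apart in that order, their library values not overlapping, while NP3, NP2, NP1 and PEP-C overlapped with their neighbours in the order. Against the other types, the log2 change of Gabra2 was 1.73 in TH neurons (SE 0.127, adjusted p = 4.84e-08) and 1.38 in NF neurons (SE 0.136, adjusted p = 1.24e-06), higher in both. In PEP-A neurons the change of 0.37 did not pass (adjusted p = 0.0993), but it passed with a stricter gate (0.50, adjusted p = 0.0183) and with likely doublets kept (0.43, adjusted p = 0.0461). Gabra2 was lower in PEP-C neurons, by -1.15 (SE 0.166, adjusted p = 7.47e-05).

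Gabra3 encodes the alpha3 subunit. TH neurons held 61 and 106 UMIs, a level of 0.0957 and 0.135, and NF neurons held 53 and 36 UMIs, a level of 0.0986 and 0.0826. PEP-A neurons were at 0.0257 and 0.0306 and PEP-C neurons at 0.0209 and 0.0290, while NP1, NP2 and NP3 held at most 5 UMIs in a library. TH and NF overlapped with each other and lay above both peptidergic types, which overlapped with each other and lay above the 3 NP types. The pooled UMI rate in TH neurons was 5.00 times that of the other types (95% counting interval 4.01 to 6.24), with a log2 change of 3.36 (SE 0.305, adjusted p = 4.67e-07), and 4.92 without replicate 1. In NF neurons the rate was 2.81 times that of the others (2.18 to 3.6), with a log2 change of 2.92 (SE 0.337, adjusted p = 6.39e-06), and 3.98 without replicate 1. NP1 and NP3 held 4 and 1 UMIs over both libraries and were lower, with rates 0.0361 (0.00979 to 0.0934) and 0.0407 (0.00103 to 0.228) times those of the other types. These intervals cover counting error only.

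Gabra5 encodes the alpha5 subunit, known for extrasynaptic receptors in the hippocampus. Its level in NF neurons was 0.153 and 0.0803 and in PEP-A neurons 0.106 and 0.0578, so these types overlapped. TH neurons held 0.0204 and 0.0267, and the other 4 types between 0.00556 and 0.0147, a range that included the 0.00761 and 0.0109 of satellite glia. The log2 change of Gabra5 in NF neurons was 2.81 (SE 0.303, adjusted p = 3.2e-06), with 2.17 without replicate 1. In PEP-A neurons it was higher by 2.37 (SE 0.335, adjusted p = 7.69e-05), with 1.77 without replicate 1. The 5 highest PEP-A cells of each library held 35 of 58 and 11 of 17 Gabra5 UMIs. Without those cells the PEP-A level was 0.0533 and 0.0240, the latter between the 2 TH values.

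**Figure D1:**
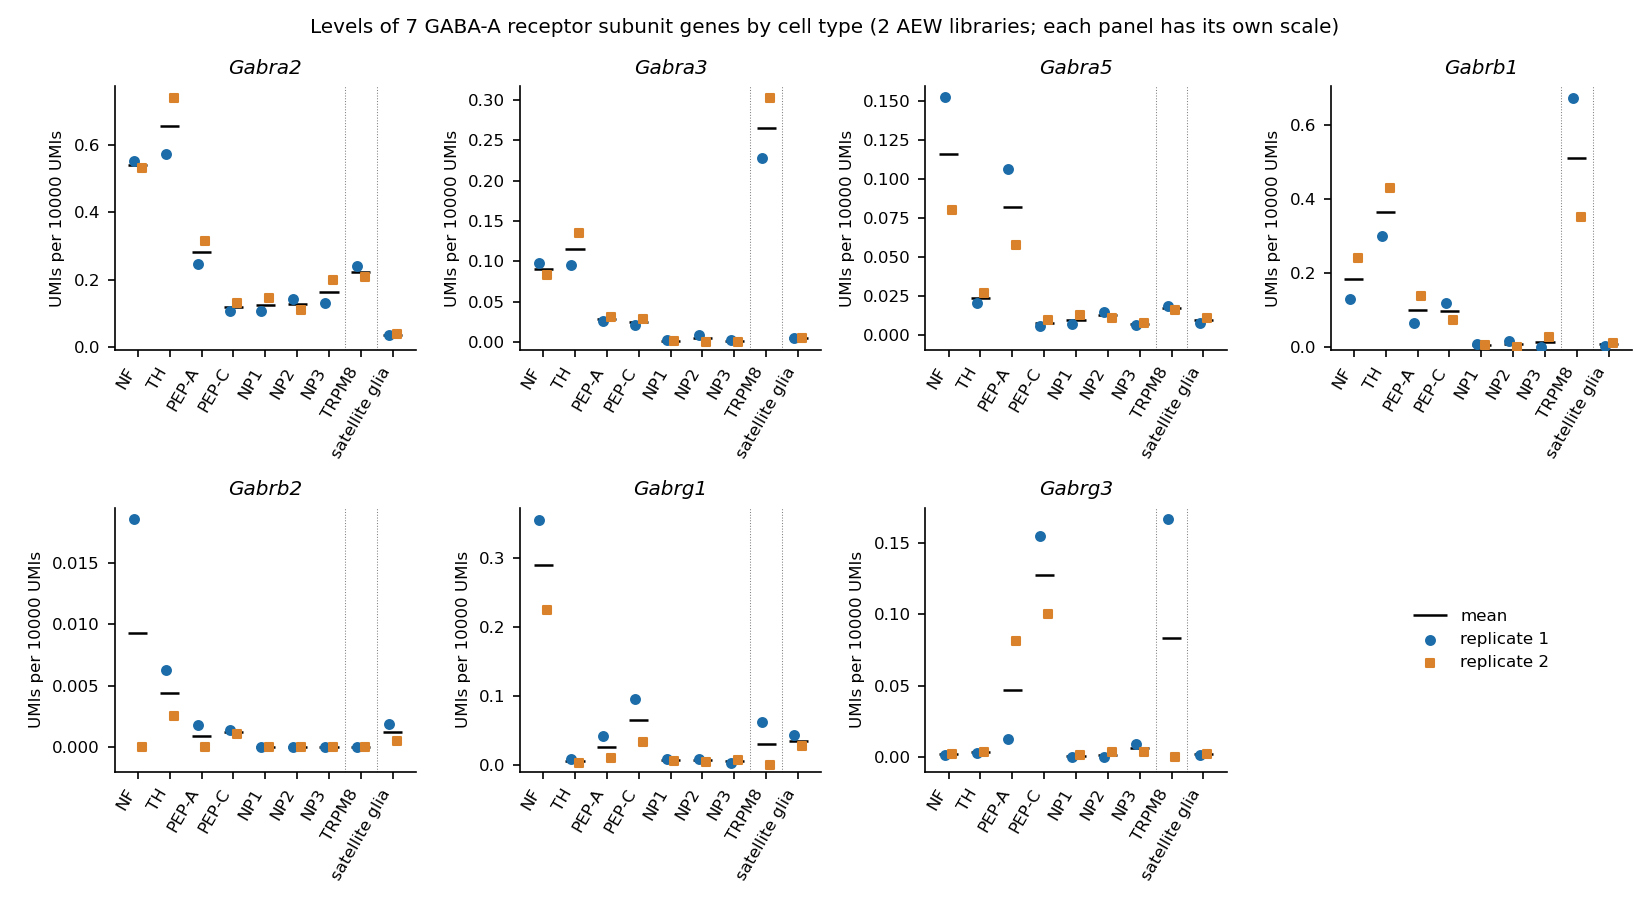
Level of each member (UMIs per 10000 UMIs of the cell type) in replicate 1 (circles) and replicate 2 (squares), with the mean of both as a line; each panel has its own scale, and dotted lines set off TRPM8-like neurons, which entered no test, and satellite glia. Gabrg1 was at 0.355 and 0.225 in NF neurons and Gabrg3 at 0.154 and 0.10 in PEP-C neurons, while NP1, NP2 and NP3 lay near 0 for every member shown except Gabra2.

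Gabrb1 encodes the beta1 subunit. TH neurons held 191 and 338 UMIs, a level of 0.30 and 0.430. NF neurons were at 0.128 and 0.239, PEP-A neurons at 0.0642 and 0.136 and PEP-C neurons at 0.118 and 0.0720. PEP-A overlapped with both NF and PEP-C, while both NF values lay above both PEP-C values. NP1 neurons held 8 and 3 UMIs, NP2 neurons 8 and 0, and NP3 neurons 0 and 7. A count of 0 allows a level of up to 0.0109 in NP2 neurons of replicate 2 and up to 0.00946 in NP3 neurons of replicate 1, taking 3 counts as the limit. TH neurons were thus apart from every other type in the fit, and the NP types were apart from the rest at the low end. The pooled rate in TH neurons was 6.10 times that of the other types (5.36 to 6.94), with a log2 change of 3.44 (SE 0.289, adjusted p = 2.15e-07), or 4.40 without replicate 1 and 4.2 without replicate 2. In NF neurons the log2 change was 2.20 (SE 0.346, adjusted p = 0.000131), or 3.29 without replicate 1, with a pooled rate 1.69 times that of the others (1.43 to 2.00).

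In PEP-C and PEP-A neurons the Gabrb1 tests and the pooled counts pointed in opposite directions. The log2 change was 1.18 in PEP-C neurons (adjusted p = 0.0211) and 1.25 in PEP-A neurons (adjusted p = 0.035), where the low NP types count as much as the others in the average of logs. The pooled rate was 0.777 times that of the other types in PEP-C neurons (0.649 to 0.925) and 0.769 times in PEP-A neurons (0.600 to 0.975). Without the replicate block the adjusted p was 0.0589 in PEP-C and 0.0673 in PEP-A neurons, and with TRPM8-like neurons added to the fit it was 0.204 and 0.227. After thinning every neuron to 10000 UMIs, the PEP-A change was 0.82 (adjusted p = 0.433). Without replicate 2 the PEP-C change was 2.53, and without replicate 1 the PEP-A change was 2.50. In PEP-A neurons the 5 highest cells held 30 of 35 Gabrb1 UMIs in replicate 1, and without the 5 highest cells of each library the level was 0.0110 and 0.0665.

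Gabrb2 encodes the beta2 subunit, part of the most abundant receptor of the brain. It was close to undetected: NF neurons held 10 and 0 UMIs, TH neurons 4 and 2, PEP-C neurons 1 and 1, PEP-A neurons 1 and 0, and the 3 NP types 0 in both libraries. In NP1 neurons, the type with the most UMIs over both libraries, a count of 0 allows levels of up to 0.00214 and 0.00413. The NF counts came from 7 of 60 cells of replicate 1 and from 0 of 95 cells of replicate 2.

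Gabrg1 encodes the gamma1 subunit, best known in the brain from restricted regions and from glia. NF neurons held 191 and 98 UMIs, a level of 0.355 and 0.225. PEP-C neurons were at 0.0959 and 0.0333 and PEP-A neurons at 0.0422 and 0.0102, while NP1, NP2, NP3 and TH neurons held at most 11 UMIs in a library. NF neurons were apart from every other type in both libraries. The pooled rate there was 14.1 times that of the other types (11.5 to 17.2), and the log2 change of 4.64 (SE 0.220, adjusted p = 4.05e-10) was the largest of the 6 subunits tested in NF neurons. In TH neurons, where Gabra2, Gabra3 and Gabrb1 were high, Gabrg1 held 5 and 2 UMIs and was lower by -2.10 (SE 0.484, adjusted p = 0.00284).

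The Gabrg1 UMIs of PEP-C neurons came from very few cells. In replicate 1, 3 cells held 58 of 69 UMIs, and in replicate 2, 3 cells held 30 of 31. Without the 5 highest cells of each library the level was 0.0103 in replicate 1 and 0 in replicate 2. The log2 change of 2.01 (adjusted p = 3.73e-05) therefore described a small subset of PEP-C cells, and the pooled rate was 1.19 times that of the other types (0.940 to 1.49). In NF neurons the 5 highest cells held 95 of 191 and 28 of 98 UMIs, and without them the level was still 0.205 and 0.170.

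Gabrg3 encodes the gamma3 subunit. PEP-C neurons held 111 and 93 UMIs, a level of 0.154 and 0.10, and PEP-A neurons 7 and 24 UMIs, a level of 0.0128 and 0.0816. Each other type in the fit held between 0 and 3 UMIs per library. PEP-C lay above PEP-A, and PEP-A above the rest, with no overlap between libraries at either step, although the PEP-A libraries lay far apart. In replicate 1 the 7 PEP-A UMIs came from 5 cells, against 3 UMIs in NP3 neurons, the next type. In PEP-C neurons the pooled rate was 19.0 times that of the other types (13.7 to 27.0), with a log2 change of 5.08 (SE 0.452, adjusted p = 6.12e-07), or 4.23 without replicate 1 and 6.36 without replicate 2. In PEP-A neurons the log2 change was 3.2 (SE 0.645, adjusted p = 0.00157), or 3.91 without replicate 1 and 2.34 without replicate 2, against a pooled rate of 1.29 times that of the others (0.855 to 1.88). The signal was spread over more cells than that of Gabrg1: 32 of 81 and 41 of 153 PEP-C cells held a UMI, and without the 5 highest cells the level was 0.0825 and 0.0700.

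Read by neuron type, the members gave distinct sets. The members were chosen with earlier results of these data known, so their counts set beside gene shares are a description and not a test. In NF neurons 5 of 6 tested subunits were higher, where 24.6% of 13145 genes were higher, and 0 of 6 were lower, where 17.5% were. Gabrg3 did not pass with 1 UMI in each library. In TH neurons Gabra2, Gabra3 and Gabrb1 were higher, 3 of 6 where 21.5% of genes were higher, and Gabrg1 was lower, 1 of 6 where 18.1% were lower. Markers of non-neuronal cells had a median of 27.9 and 28.0 UMIs per 10000 in TH neurons, against 6.08 to 20.8 in the other types of the fit, and their part in the TH result was not tested. Gabrb1 was at 0.30 and 0.430 in TH neurons, against 0.00190 and 0.00980 in satellite glia, whose own median of these markers was 1139 and 1101.

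Peptidergic types carried the gamma3 transcript. PEP-C neurons were higher for Gabrg3, Gabrg1 and Gabrb1, 3 of 6 where 19.0% of genes were higher, with the limits given above for Gabrg1 and Gabrb1, and lower for Gabra2 and Gabra5, 2 of 6 where 13.1% were lower. PEP-A neurons were higher for Gabra5, Gabrg3 and Gabrb1, 3 of 6 where 18.6% were higher, and lower for 0 of 6 where 10.2% were lower. The few-cell limits given above for PEP-A neurons hold for these 3 calls. Called in opposite directions in the peptidergic types was Gabra5, lower in PEP-C neurons by -1.63 (SE 0.478, adjusted p = 0.0172, with -2.24 without replicate 2) and higher in PEP-A neurons. Gabra2 was lower in PEP-C neurons and at 0.37 in PEP-A neurons, which passed only with the alternatives given above. The difference between those types was not tested directly.

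In the non-peptidergic types every change that passed was downward. NP1 neurons were lower for 6 of 6 subunits where 20.0% of genes were lower, NP2 neurons for 3 of 6 where 9.93% were lower, and NP3 neurons for 5 of 6 where 17.2% were lower. In each of these types 0 of 6 were higher, where 21.0%, 13.4% and 17.6% of genes were higher in NP1, NP2 and NP3 neurons. Members other than Gabra2 held at most 11 UMIs per library in these types and passed the low-count filter through types where they were higher. A higher call was hardly open to them here, so these counts are a description and not a test. Several of the calls in the NP types rest on few UMIs. In NP1 neurons the calls for Gabra5 (adjusted p = 0.0475), Gabrg1 (0.00951) and Gabrg3 (0.0476) did not pass without the replicate block, at 0.0659, 0.103 and 0.0544. In NP2 and NP3 neurons the Gabrg1 calls were lost without the block, at 0.247 and 0.103. One library set the size of several of them. The Gabrb1 change was -2.42 in NP2 neurons, or -8.19 without replicate 1 and -0.77 without replicate 2, and -2.30 in NP3 neurons, or -0.32 without replicate 1 and -8.18 without replicate 2. In NP3 neurons the Gabra3 change of -3.56 became -5.72 and the Gabrg1 change of -2.17 became -0.82 without replicate 1, against -2.82 and -3.31 without replicate 2. In NP1 neurons the Gabrb1 change of -3.36 became -2.21 without replicate 2, and those of Gabra3 (-3.16), Gabra5 (-1.18) and Gabrg3 (-3.49) became -2.31, -0.59 and -2.52 without replicate 1, with -4.80 for Gabrg3 without replicate 2. Of the changes that passed in each NP type, that of Gabra2 was the smallest, at -0.84 in NP1, -0.82 in NP2 and -0.66 in NP3 neurons, and these 3 calls were lost when neurons were thinned, with changes of -0.68, -0.84 and -0.13. Thinning also lost the Gabrg1 calls in NP1, NP2 and NP3 neurons and the Gabrb1 calls in NP2 and NP3 neurons.

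**Figure D2:**
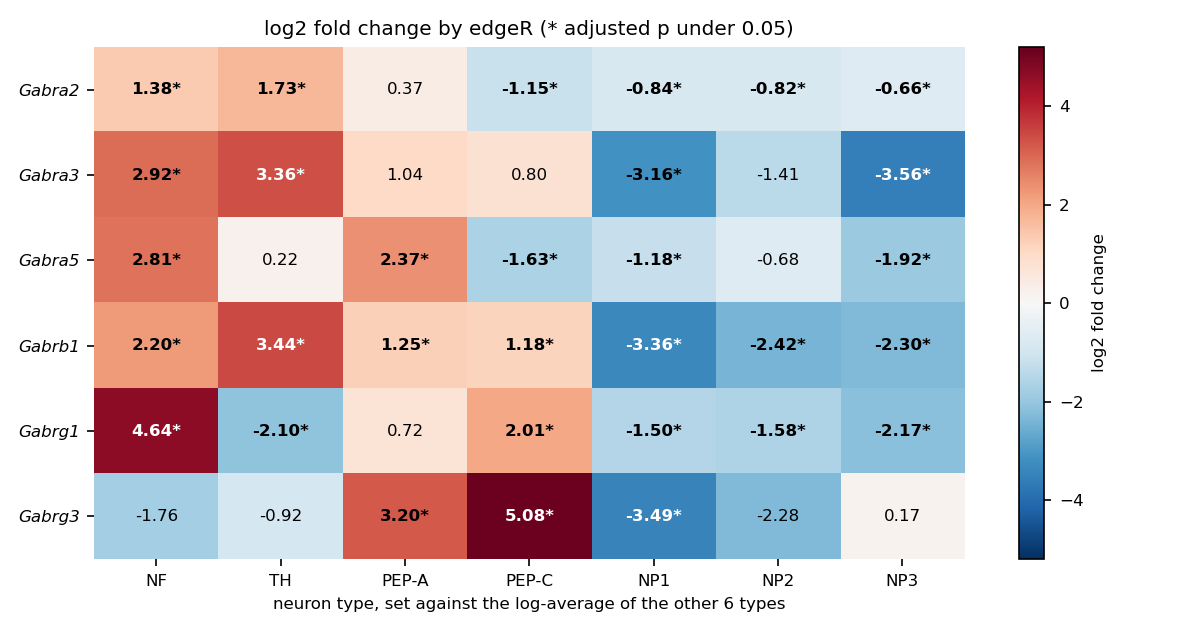
log2 fold change of the 6 tested members in each neuron type against the log-average of the other 6 types, with an asterisk and bold type where the adjusted p was under 0.05. Red marks higher and blue lower, the extremes being Gabrg3 at 5.08 in PEP-C neurons and Gabra3 at -3.56 in NP3 neurons.

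Satellite glia served as the background that free RNA can give. Over the mean of the 7 neuron types, Gabra2, Gabra3, Gabra5 and Gabrb1 were higher than in satellite glia, 4 of 6 where 33.6% of 14780 genes were higher, with log2 changes of 2.50, 1.32, 1.02 and 2.86. Gabrg3 did not pass (adjusted p = 0.174). Gabra3 was at 0.17 without replicate 1 and lost its call with the stricter gate (adjusted p = 0.0868). Gabra5 lost its call under DESeq2 (adjusted p = 0.0787) and with the looser gate (adjusted p = 0.0534), and Gabrb1 was at 1.43 without replicate 1. With neurons thinned, the Gabra3 call (1.08, adjusted p = 0.947) and the Gabrb1 call (2.42) were both lost. Gabrg1 was lower than in glia by -1.13 (SE 0.264, adjusted p = 0.000532), 1 of 6 where 38.8% were lower, but the pooled neuron rate was 1.48 times that of glia (1.22 to 1.8) and the levels went both ways: 0.355 and 0.225 in NF neurons and under 0.01 in TH, NP1, NP2 and NP3 neurons, against 0.0428 and 0.0278 in satellite glia. NF neurons alone were higher than glia for Gabrg1 by 2.75 (SE 0.271, adjusted p = 4.37e-09), and NP1, NP2, NP3 and TH neurons were each lower. The NP2 and NP3 calls were lost when neurons were thinned (adjusted p = 0.0513 and 0.0627).

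Taken type by type against satellite glia, Gabra2 was higher in each of the 7 neuron types, with log2 changes from 1.53 in PEP-C to 4.03 in TH neurons. In NP1, NP2 and NP3 neurons it was the single subunit of 6 that was higher, where 33.5%, 30.0% and 28.2% of genes were. NF and PEP-A neurons were higher for 5 of 6, where 32.2% and 30.5% of genes were, and TH and PEP-C neurons for 4 of 6, where 31.7% and 31.0% were. The TH call for Gabra5 (adjusted p = 0.0391) was lost with RLE factors (0.0644), DESeq2 (0.131), the looser gate (0.0694) and likely doublets kept (0.0616). The Gabra3 calls in PEP-C and PEP-A neurons were lost when thinned (adjusted p = 0.0970 and 0.0661). Gabrg3 was 60.9 times as high in PEP-C neurons as in satellite glia by pooled rate (30.3 to 143), with a log2 change of 5.71, or 4.85 without replicate 1. Gabrb1 was 66.5 times as high in TH neurons (43.5 to 107), with a log2 change of 5.84, or 5.16 without replicate 1 and 6.99 without replicate 2.

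Depth differs between neurons and glia, so shares of cells were also taken after thinning each cell to 10000 UMIs. Gabra2 was then found in 46.9% and 44.3% of TH neurons and in 21 of 60 and 38 of 95 NF neurons, against 4.29% and 3.23% of satellite glia. Before thinning the TH counts were 48 of 49 and 119 of 131 cells, at median depths of 131964 and 65615 UMIs, and the satellite glia shares were 3.1% and 2.71%, at 8192 and 7160 UMIs. Gabrb1 was found in 24.5% and 35.1% of thinned TH neurons, Gabrg1 in 25.0% and 18.9% of NF neurons and Gabrg3 in 13.6% and 10.5% of PEP-C neurons. No neuron fell below that depth, whereas 1735 and 2135 satellite glia were left out, leaving 652 and 341.

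**Figure D3:**
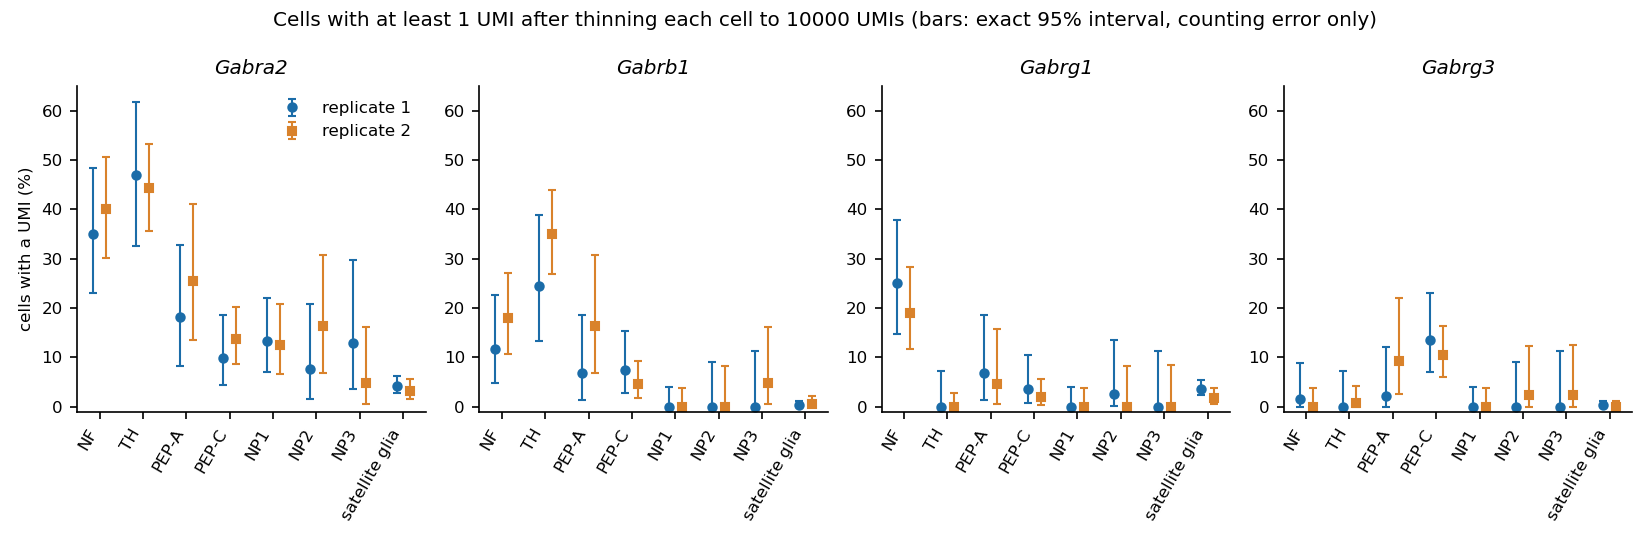
Share of cells with at least 1 UMI after thinning each cell to 10000 UMIs, in percent, for Gabra2, Gabrb1, Gabrg1 and Gabrg3, with exact Clopper-Pearson 95% intervals that cover counting error only. Gabra2 reached 46.9% and 44.3% in TH neurons against 4.29% and 3.23% in satellite glia, and the intervals of the 3 NP types overlap those of satellite glia for Gabrg3.

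The title of the series sets pain against itch, and the itch-associated NP2 and NP3 neurons were compared with the peptidergic PEP-C and PEP-A neurons. Gabra3, Gabra5, Gabrb1, Gabrg1 and Gabrg3 were lower in the itch-associated types, 5 of 6 where 19.7% of genes were lower, and 0 of 6 were higher, where 15.1% were. These 5 held few UMIs in NP2 and NP3 neurons and passed the low-count filter through other types. A higher call was hardly open to them, so the counts are a description and not a test. Gabrg3 averaged 0.00421 ± 0.000728 in NP2 and NP3 neurons and 0.0872 ± 0.00509 in PEP-C and PEP-A neurons (SD, n = 2 libraries), a log2 change of -4.45 (SE 0.717, adjusted p = 0.000187), on 5 and 235 UMIs. Gabrb1 averaged 0.0102 ± 0.00409 in the itch-associated types and 0.0976 ± 0.00905 in the peptidergic types, a log2 change of -3.06 (SE 0.518, adjusted p = 0.000291), or -5.33 without replicate 1 and -5.62 without replicate 2, with the few-cell limit of PEP-A replicate 1 given above. These SDs are of means over 2 types, in which library differences of opposite direction partly cancel. In replicates 1 and 2, Gabrg3 was at 0.154 and 0.10 in PEP-C and at 0.0128 and 0.0816 in PEP-A neurons. Gabrb1 was at 0.118 and 0.0720 in PEP-C and at 0.0642 and 0.136 in PEP-A neurons. It was at 0.0147 and 0 in NP2 and at 0 and 0.0263 in NP3 neurons. For both genes each library of the itch-associated types lay below each library of the peptidergic types.

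Gabra2 showed the least difference. It was at 0.136 and 0.154 in the itch-associated types and at 0.177 and 0.224 in the peptidergic types, without overlap, and its change of -0.30 (SE 0.164, adjusted p = 0.183) did not pass, although it did with the stricter gate (-0.55, adjusted p = 0.0150). Gabrg1 was lower by -2.78 (adjusted p = 0.00011), or -1.75 without replicate 1 and -3.48 without replicate 2, with the concentration of its PEP-C UMIs in a few cells described above. The Gabrg1 call was lost when neurons were thinned (-4.02, adjusted p = 0.170). Gabra5 was lower by -1.43 (adjusted p = 0.0424), a call lost under DESeq2 (adjusted p = 0.0718) and the stricter gate (adjusted p = 0.0607). Gabra3 was lower by -2.92 (adjusted p = 0.00156), or -6.98 without replicate 1, where NP2 and NP3 neurons of replicate 2 held 0 UMIs, and -2.03 without replicate 2.

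**Figure D4:**
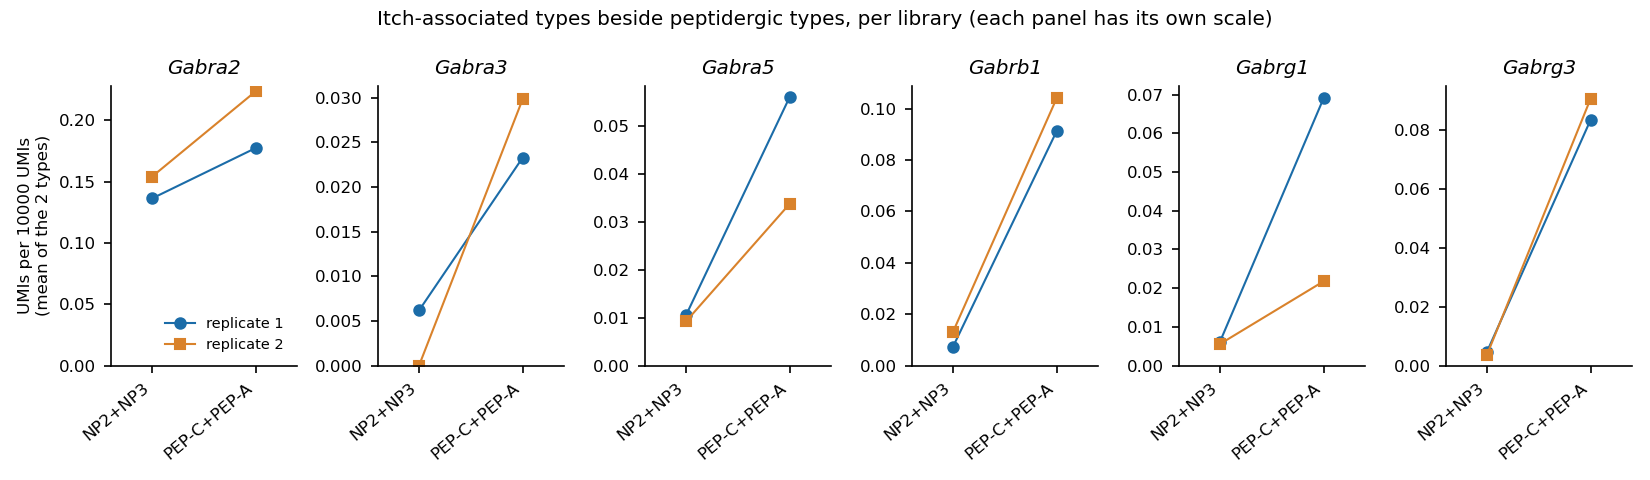
Level of the 6 tested members (UMIs per 10000 UMIs, mean of the 2 types on each side) in NP2 and NP3 neurons, left, and PEP-C and PEP-A neurons, right, with a line for each library; each panel has its own scale. Every line climbs to the right, by little for Gabra2 (0.136 beside 0.177, and 0.154 beside 0.224) and by most of the scale for Gabrg3 (0.00473 beside 0.0836, and 0.00370 beside 0.0908).

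Several subunits were found in the same cells. In TH neurons Gabra2 and Gabrb1 were both detected in 47 of 49 and 99 of 131 cells, an alpha and a beta subunit in most cells of the type. In NF neurons Gabra2 and Gabrg1 were both detected in 33 of 60 and 39 of 95 cells, out of 35 and 43 cells with Gabrg1. In PEP-C neurons Gabrb1 and Gabrg3 were both detected in 17 of 81 and 16 of 153 cells, out of 23 and 24 cells with Gabrb1. Detection of any pair rises with the depth of a cell, and a UMI shows transcript and not an assembled receptor.

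NF neurons were split by Pvalb, a marker of proprioceptors, and Ntrk2. Among cells with at least 1 Pvalb UMI per 10000, 20 and 52 in number, Gabrb1 was at 0 and 0.105, against 0.296 and 0.550 in the 23 and 19 cells low in both Pvalb and Ntrk2, with no overlap. In the cells with Ntrk2 and little Pvalb it was at 0.104 and 0.288, which overlapped with the Pvalb cells. Gabra3 was at 0.00869 and 0.0312 in the 17 and 24 cells with Ntrk2 and little Pvalb, against 0.155 and 0.0697 in the Pvalb cells and 0.177 and 0.205 in the cells low in both. Gabrg1 and Gabra2 were found in all 3 groups of NF cells in both libraries. Within PEP-C neurons Gabrg3 was at 0.123 and 0.0857 in cells with Sstr2 and at 0.189 and 0.118 in cells low in Sstr2, so it was not confined to either. Gabrb1 was at 0.0694 and 0.0331 in the Sstr2 cells and at 0.171 and 0.12 in the Sstr2-low cells, without overlap. These splits were described and not tested.

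The genes most like each member were sought among 7431 genes over the 7 types and 2 libraries, 14 points that share libraries, by Pearson's r of log2(CPM + 1). Gabra2, Gabrb1 and Gabrg1 reached the level needed. Nearest to Gabra2 were Rem2 (r = 0.957), a small GTPase that inhibits calcium channels, Atp2b2 (0.955), a plasma membrane calcium pump, and Adcy1 (0.955), a calcium-stimulated adenylyl cyclase. Nearest to Gabrb1 were Nrip3 (0.970), Rprm (0.957) and Septin4 (0.956). Among the 3 nearest to Gabrg1 were Tafa2 (0.936) and Pcdh7 (0.930), a protocadherin. Tafa2 was at 1.45 in NF neurons and at most 0.0585 in any other type.

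The wider GABA pathway was followed through a list of 44 other genes, of which 30 were tested between neuron types. In NF neurons 17 were higher and 3 lower, with a median log2 change of 0.41 against 0.01 over all genes. In TH neurons 11 were higher and 5 lower (median 0.11 against 0.00), in NP1 neurons 11 and 5 (median 0.09 against -0.03), and in PEP-A neurons 6 and 5 (median 0.11 against 0.01). In PEP-C neurons 5 were higher and 10 lower (median -0.09 against 0.02), in NP2 neurons 2 and 6 (median -0.15 against 0.00), and in NP3 neurons 4 and 12 (median -0.41 against -0.01). Counts of 16 to 20 called among 30 compare with 42.2% of all genes called in NF, 39.7% in TH, 41.0% in NP1 and 34.8% in NP3 neurons. The 8 called in NP2, 15 in PEP-C and 11 in PEP-A neurons compare with 23.4%, 32.1% and 28.8% of genes called. By direction, 24.6% of all genes were higher and 17.5% lower in NF neurons, and 17.6% and 17.2% in NP3 neurons. The shares for the other types are given above with the members. Between the itch-associated and the peptidergic types 5 were higher and 10 lower (median -0.13 against -0.02), where 34.9% of genes were called.

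Among genes for chloride and GABA handling, Slc12a2, which loads chloride, was higher in the itch-associated than in the peptidergic types, at 0.703 ± 0.0397 against 0.391 ± 0.0764 (0.87, adjusted p = 0.000254), and lower in NF neurons (-0.67, adjusted p = 0.00403). Satellite glia held 5.15 ± 0.501 of Slc12a2, above every neuron type, and the part of free RNA in the neuronal values was not tested. Slc12a5, the chloride extruder of mature central neurons, held at most 6 UMIs in any neuron type. Slc12a7, a potassium-chloride cotransporter, averaged 0.415 in TH neurons, against 0.0247 in the others (4.80, adjusted p = 9.87e-11). Abat, which breaks GABA down, was lower in TH (-2.32, adjusted p = 3.19e-06) and higher in NP1 neurons (1.68, adjusted p = 9.33e-07). Lhfpl4, which clusters receptors at synapses, averaged 2.50 in NF neurons, against 0.945 in the others (1.4, adjusted p = 2.8e-08), and was lower in PEP-C neurons (-1.53, adjusted p = 2.31e-07). Against satellite glia, neurons were lower for the GABA transporter Slc6a11 (-6.91, adjusted p = 1.74e-15) and for Dbi, a ligand of the receptor's benzodiazepine site, at 3.75 in neurons against 137 in satellite glia.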

How the data were processed

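Single-cell libraries of L4-5 DRG from the AEW group were made with the 10x Genomics 3′ kit, per the labels' protocols. The values deposited by the authors are UMI counts, whole numbers that were not normalized, with a gene and a barcode for each. The submitters' processing notes name CASAVA 1.8, Cell Ranger 5.0.1 and build mm10, and the file headers name the software version of the matrices. The other deposited files list barcodes, gene identifiers and symbols, a unit other than a measurement. For intron counting, annotation release and cell calling, the setting was not given in the sources used here.

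A barcode was kept if it held 500 genes or more and if mitochondrial UMIs made up less than 20%. Neurons had at least 10000 UMIs and 80 neuron-panel UMIs per 10000, and non-neuronal cells at least 3000 UMIs and at most 40. Each cell took the type whose 3 highest markers, scaled to their 98th percentile, averaged at least 0.3 and led the next type by 0.1. The cutoffs were set on markers, not members, after the files were read. No doublet caller was run, and the 52 and 121 neurons over 75 non-neuronal panel UMIs per 10000 were removed as likely doublets. Neurons of no type, 126 and 182, entered no type.

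UMIs were summed per type and library for types with at least 20 cells in each, which left out TRPM8-like neurons (23 and 13 cells). edgeR 4.0.16 (R 4.3.3) was used with TMM, its filter on low counts, type and library as terms, the quasi-likelihood test and Benjamini-Hochberg adjustment over all genes. The fit of neuron types held 14 sums, 13145 genes and 6 residual degrees of freedom, and the fit with non-neuronal classes 28 sums, 14780 genes and 13. Library is a block because every type comes from the same 2 libraries. The test was also run on simulated counts. Gene positions came from GENCODE mouse release M21 and promoters from RefSeq, where all 7 members matched. Tables were handled with Python 3.11.15, pandas 2.3.3 and scipy 1.17.1, and figures drawn with matplotlib 3.10.9.

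The text names the 7 members, up to 4 pathway genes per direction that passed and held at least 10 CPM on the higher side in both libraries, and the 3 genes most like each member at 20 CPM or more. Some genes that this rule names are not reported here. The values of Slc12a5 and the splits of NF and PEP-C neurons were chosen after their values were seen. Members and lists were chosen with earlier results of these data known. Contrasts of each type with satellite glia were added later. Alternatives were the normalization, the low-count filter, DESeq2 1.42.0, no replicate block, other gates, likely doublets kept, thinning to 10000 UMIs, the mean over cells and leaving out each library. Shares carry exact Clopper-Pearson 95% intervals, and a count of 0 is limited at 3 counts.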

Additional observations from a re-analysis of the deposited data

Results flagged for a closer look

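Some members had signal in cells that entered no comparison above. TRPM8-like neurons, cold-sensing by their markers Trpm8, Foxp2 and Cdh8, numbered 23 and 13, too few in replicate 2 for the fit. Gabra3 averaged 0.265 UMIs per 10000 there, from 37 and 19 UMIs, at 0.228 and 0.302, against 0.00523 and 0.00545 in satellite glia. Both values lay above those of every neuron type in the fit, where TH neurons were highest at 0.0957 and 0.135. Gabrb1 averaged 0.511, from 109 and 22 UMIs, at 0.671 and 0.350, against 0.00190 and 0.00980 in satellite glia, and it was found in 20 of 23 and 11 of 13 cells. Gabra2 averaged 0.223, at 0.240 and 0.207, against 0.0357 and 0.0370 in satellite glia.

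In fibroblast-like cells Gabra3 averaged 0.149, from 31 and 24 UMIs, at 0.179 and 0.119, against 0.00523 and 0.00545 in satellite glia. It was found in 20 of 236 and 21 of 346 fibroblast-like cells before thinning. No other member passed 3 times the satellite glia level in both libraries of a non-neuronal class with at least 10 UMIs in each. These differences were not tested.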

How the results depend on the processing

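Of 96 pairs of a member and a comparison, 66 were called, a count given as the base for the alternatives. The pairs share genes and cells. Between neuron types 23.4% (NP2) to 42.2% (NF) of all genes were called in either direction. Against satellite glia 28.2% (NP3) to 33.6% (mean of the neuron types) were called higher. No filter on low counts changed none of these 66 calls, RLE factors lost 1, the looser gate, likely doublets kept and TRPM8-like neurons added each lost 3, the stricter gate lost 5, and DESeq2 and the fit with no replicate block each lost 7. Thinning neurons to 10000 UMIs gave a value for 47 of the 66 and lost 17 calls. The stricter gate added 3 calls, and likely doublets kept and TRPM8-like neurons added 1 each. The looser gate and the addition of TRPM8-like neurons were chosen after seeing the data. The level of each member in its highest type moved by less than the spread between libraries under each setting tried, and with 1 library left out no test could be made. Few UMIs limit the values of the NP types, where members other than Gabra2 held at most 11 UMIs per library.

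With neurons thinned, genes called against the other neuron types numbered 2229 (NP1), 895 (NP2), 1734 (NP3), 2224 (TH), 1827 (PEP-C), 1580 (PEP-A) and 2480 (NF), and 1922 for NP2 and NP3 against PEP-C and PEP-A. Against satellite glia they numbered 5912 (NP2), 5483 (NP3) and 6129 (PEP-A). Unthinned, the counts between neuron types were 5384, 3071, 4579, 5216, 4216, 3792, 5542 and 4586 in the same order. Pathway list genes called fell when thinned to 9 (NP1), 1 (NP2), 7 (NP3), 8 (TH), 6 (PEP-C), 5 (PEP-A), 13 (NF) and 7 (NP2 and NP3 against PEP-C and PEP-A). The fit with no replicate block called 10 in NP1, 3 in NP2 and 6 in PEP-A neurons, and the fit with TRPM8-like neurons added called 7 in PEP-A neurons. Thinning discards most UMIs of each neuron.

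Only changes that had not passed turned direction. With TRPM8-like neurons added, Gabrg3 in NP3 neurons was at -0.39. Thinned, Gabra2 was at -0.22 in PEP-A neurons and at 0.0810 in NP2 and NP3 against PEP-C and PEP-A. Against satellite glia, Gabra5 in NP1 neurons was at -0.0586 with RLE, -0.0219 with DESeq2, -0.0863 with the looser gate and -0.00277 with TRPM8-like neurons. Gabrb1 in NP1 neurons was at -0.0868 with RLE, -0.0102 with DESeq2, -0.0183 with the stricter gate, -3.68 thinned and -0.0617 with TRPM8-like neurons. With the stricter gate, Gabra3 in NP2 was at -0.97 and Gabrb1 in NP3 neurons at -1.62. The cause was not tested.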

Other observations

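TRPM8-like neurons also held other subunits, given as values from 23 and 13 cells. Gabrd, the delta subunit of extrasynaptic receptors, was at 0.166 and 0.286 UMIs per 10000, from 27 and 18 UMIs, against at most 0.0459 in any neuron type in the fit, where PEP-C neurons were highest with 33 and 31 UMIs. Gabrg3 was at 0.166 and 0, from 27 and 0 UMIs, so its libraries differed there, and a count of 0 allows up to 0.0477 in replicate 2. Gabra4 was at 0.0985 and 0.0477 in TRPM8-like neurons, from 16 and 3 UMIs. In NF neurons it was at 0.0372 and 0.0505, from 20 and 22 UMIs, with 0 to 2 UMIs per library in the other neuron types. The start of Gabra4 overlaps that of Gabrb1 on the opposite strand, and the part of this overlap in the counts was not tested.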
